A study of Homo sapiens with 12 samples.

Results

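The mitochondrial ribosomal RNA (rRNA) unit is the block of 5 adjoining genes at the start of the heavy-strand transcript of the human mitochondrial genome. In order these are MT-TF, MT-RNR1, MT-TV, MT-RNR2 and MT-TL1. They were taken by name from the deposited table, where all 5 are present among 57134 genes and among 37 rows encoded by the mitochondrial genome. The study compared 2 DASHed mini-bulk and 4 DASHed single-cell libraries with 2 untreated mini-bulk and 4 untreated single-cell libraries. The cells in all 12 were HCT116, an established line from a human colon carcinoma, and the method was MATQ-seq, which amplifies total RNA. Single cells had been sorted by FACS. DASHed libraries went through scDASH, a step in which Cas9 cuts rRNA-derived sequence, and untreated libraries did not. No other agent or genotype is named in the labels, and the labels do not say whether the guides were directed at mitochondrial rRNA.

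Both strands of the mitochondrial genome are transcribed into long precursors, and the tRNAs between the longer genes act as cutting marks. RNase P releases the 5′ end of each tRNA and ELAC2 the 3′ end, which also frees the rRNA on either side. MT-RNR1 encodes 12S rRNA, the core of the small mitochondrial ribosomal subunit, and MT-RNR2 encodes 16S rRNA, the core of the large subunit. MT-TF encodes the phenylalanine tRNA, MT-TL1 the leucine tRNA that reads UUA and UUG codons, and MT-TV the valine tRNA, which in human cells is also a structural part of the large subunit. MTERF1 binds inside MT-TL1, downstream of 16S rRNA.

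In GENCODE v29 (GRCh38) the genes lie on the plus strand of chromosome M with 0 bases between neighbours. MT-TF spans 577 to 647, MT-RNR1 648 to 1601, MT-TV 1602 to 1670, MT-RNR2 1671 to 3229 and MT-TL1 3230 to 3304. The genes have no introns, and the annotation classes them as mitochondrial tRNA or rRNA. 12S rRNA is 954 bases long with 45.5% GC, and 16S rRNA is 1559 bases long with 42.8% GC. The tRNA genes are shown whole because the largest differences of this unit lie in these short stretches. They are printed as DNA from 5′ to 3′, from the GENCODE v29 transcripts, with the anticodon in capitals:
MT-TF: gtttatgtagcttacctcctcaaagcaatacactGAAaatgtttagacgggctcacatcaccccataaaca
MT-TV: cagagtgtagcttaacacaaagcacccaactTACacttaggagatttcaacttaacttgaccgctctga
MT-TL1: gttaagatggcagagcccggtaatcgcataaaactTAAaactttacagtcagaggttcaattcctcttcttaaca

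The deposited values are estimated counts from kallisto, which assigns reads by short words of sequence. Of the words of 31 bases in MT-TF, MT-RNR1, MT-TV and MT-TL1, 100% occur in no other GENCODE v29 gene, and the counts of these genes are whole numbers in all 12 libraries. MT-RNR2 differs, because 485 of its 1529 words also occur in 13 other genes, mostly MTRNR2L genes. These are nuclear copies of 16S sequence named after humanin, a peptide encoded within MT-RNR2. MT-RNR2 has fractional values in all 12 libraries, so its counts are in part an allocation between it and the copies. Over their aligned length MTRNR2L1 is 88.6% identical to 16S rRNA, and the 70 bases where the pair differs most are shown because reads of the pair can be told apart there. The stretch of 16S rRNA from 2729 to 2798, its bases 1059 to 1128, differs from MTRNR2L1 at 12 positions, in capitals. The aligned MTRNR2L1 stretch, bases 1048 to 1117 of its transcript from chromosome 17, stands below it:
MT-RNR2: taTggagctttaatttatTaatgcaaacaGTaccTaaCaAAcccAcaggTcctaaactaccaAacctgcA
MTRNR2L1: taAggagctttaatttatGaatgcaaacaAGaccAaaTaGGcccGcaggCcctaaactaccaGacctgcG

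Library totals were 837614 and 1087711 counts in DASHed mini-bulk, 5803180 and 6026584 in untreated mini-bulk, 1018874 to 1573651 in DASHed cells and 5545355 to 6008358 in untreated cells. Nuclear rRNA, with the lincRNA genes that lie inside 18S rRNA genes, took 31.2 to 36.0% of counts in DASHed mini-bulk and 71.1 to 75.9% in untreated mini-bulk. In single cells it took 21.1 to 31.3% in DASHed and 61.5 to 73.3% in untreated libraries. A share of all counts therefore depends on what happened to nuclear rRNA, so ratios within the unit are given beside it. Of 8 colon epithelial markers, 6 had more than 3 counts in each mini-bulk library. The exceptions were CEACAM6, with 0 DASHed and 1 untreated mini-bulk counts, and LGALS4, with 4 and 0. Of 11 markers of blood, fibroblast, endothelial, liver and erythroid cells, 6 were at 0 in all libraries, namely CD3E, CD79A, LYZ, VWF, ALB and HBB. The summed epithelial markers stood at 1242 to 1430 CPM (counts relative to the library's own total) in DASHed mini-bulk and 160 to 210 CPM in untreated mini-bulk, against 17.9 to 32.3 CPM and 5.42 to 7.15 CPM for the other markers. In single cells the epithelial sums were 1138 to 4208 CPM in DASHed and 274 to 869 CPM in untreated libraries, and the sums of the other markers were 0.635 to 22.1 CPM and 1.30 to 7.57 CPM. KRT8 was the highest epithelial marker in mini-bulk, with a mean of 747 CPM in DASHed and 86.0 CPM in untreated libraries. The part of these differences in the results was not tested. The labels do not name cultures, so the spread behind a mini-bulk p-value may be only technical. As each cell gave its own library, the 4 cells of a treatment are treated as 1 sample, and treatments are not tested against each other in cells. For differences between cells, fewer mitochondria per cell and less RNA per mitochondrion cannot be told apart in these data. Intervals cover counting error only.

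The first comparison asks how the level of each rRNA differed between DASHed and untreated libraries. The 12S rRNA shares of DASHed and untreated libraries overlapped, whereas the 16S rRNA share was lower in both DASHed mini-bulk libraries. 12S rRNA took 3.31 and 3.57% of counts in DASHed mini-bulk libraries and 3.53 and 4.11% in untreated ones, so the groups overlapped. The means were 3.44% ± 0.188 and 3.82% ± 0.406 (SD, n = 2 each), a ratio of 0.90, with p = 0.667 by an exact permutation test (two-sided, as are all such tests here). 16S rRNA took 3.40 and 3.23% in DASHed mini-bulk libraries and 6.34 and 6.90% in untreated ones. Both DASHed values lay far below both untreated values, with means of 3.32% ± 0.119 and 6.62% ± 0.396 (SD, n = 2 each), a ratio of 0.501 and an exact permutation p of 0.333, the smallest that 2 against 2 libraries allow.

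In the single cells the 12S share varied more between cells than between treatments. In order of replicate number, DASHed cells had 3.39, 4.57, 2.02 and 2.62% and untreated cells 3.17, 4.77, 2.28 and 2.34%. The 2 groups overlapped almost wholly, with cell 2 highest and cell 3 lowest in each, and the same order of all 4 cells in both groups. The ratio of means was 1.003. For 16S rRNA the DASHed cells had 3.73, 4.20, 2.07 and 2.39% and the untreated cells 4.98, 6.61, 3.34 and 3.04%. The groups overlapped because cells differed up to 2.18-fold within the untreated group, but each DASHed cell lay below the untreated cell of its own number. Within same-numbered cells the 16S ratio was 0.749, 0.635, 0.622 and 0.787, and over the means it was 0.69.

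**Figure D1:**
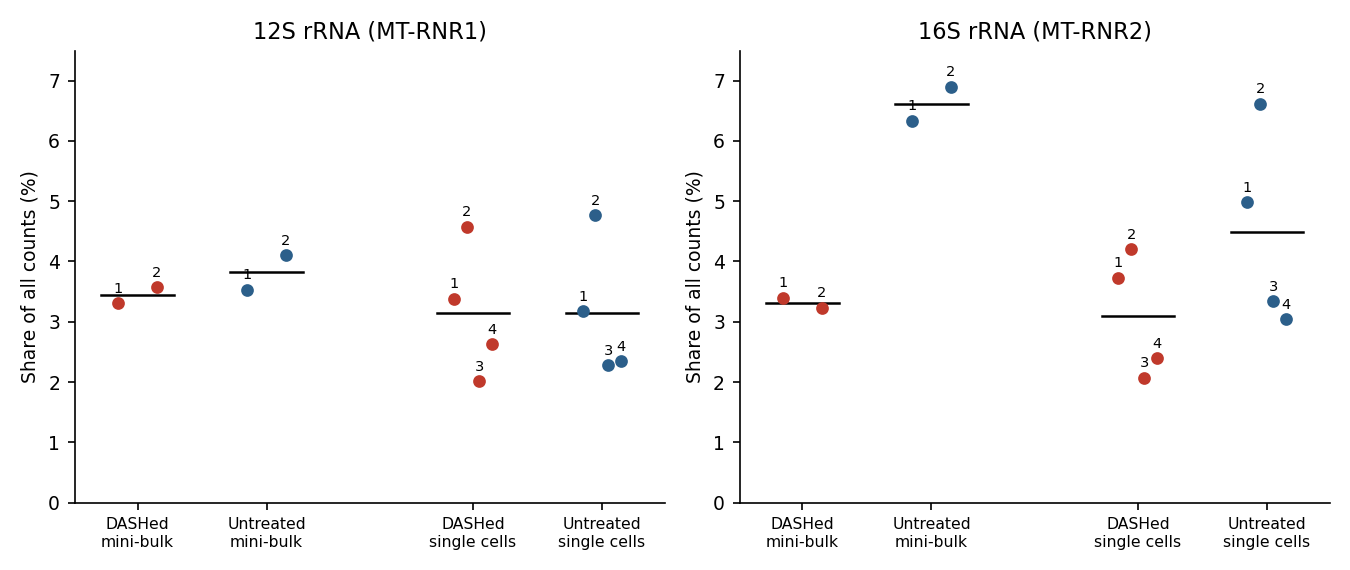
Share of all counts, in percent, taken by 12S rRNA (left) and 16S rRNA (right) in each library. Points are libraries with their replicate number, DASHed in red and untreated in blue, and lines are group means. The 12S groups overlap in both inputs, while 16S stands at 3.23 and 3.40% in DASHed mini-bulk and at 6.34 and 6.90% in untreated mini-bulk.

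The ratio of 16S to 12S counts does not depend on a library's total or on nuclear rRNA, but it is not adjusted for GC content. It was lower after depletion in both inputs, with no overlap. The ratio was 1.03 and 0.905 in DASHed mini-bulk libraries and 1.79 and 1.68 in untreated ones. DASHed cells had 1.10, 0.918, 1.03 and 0.912 and untreated cells 1.57, 1.39, 1.46 and 1.30. The DASHed ranges of the 2 inputs overlapped. Cell 1 had the highest ratio and cell 4 the lowest in both groups, with cells 3 and 2 in between in the same order. The means were 0.967 ± 0.0876 and 1.74 ± 0.0808 in mini-bulk (SD, n = 2 each), with p = 0.333 by exact permutation, again the lowest attainable. In the cells the mean was 0.99 in DASHed and 1.43 in untreated libraries, and same-numbered ratios ran from 0.663 to 0.703. In mini-bulk the same-numbered ratios were lower, at 0.539 and 0.574, and this difference between inputs was not tested.

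**Figure D2:**
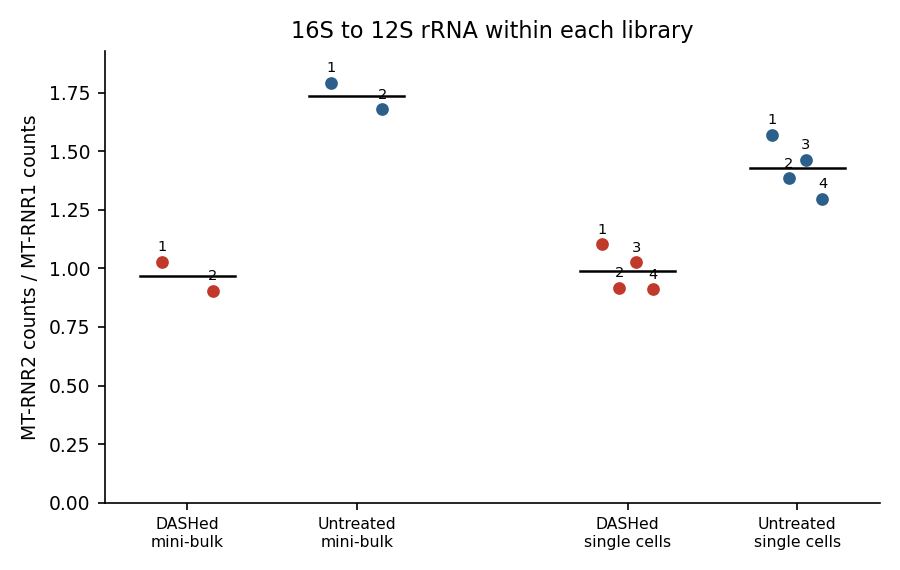
Counts of 16S rRNA divided by counts of 12S rRNA in each library. Points are libraries with their replicate number and lines are group means. The 6 DASHed libraries lie between 0.905 and 1.10, below the 6 untreated libraries, which lie between 1.30 and 1.79.

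Per base of gene length, both rRNAs stood at a like level without depletion and apart with it. In DASHed mini-bulk 12S rRNA had 34.7 and 37.4 CPM per base and 16S rRNA 21.8 and 20.7. In untreated mini-bulk 12S rRNA had 37.0 and 43.1 CPM per base and 16S rRNA 40.6 and 44.2, ranges that overlap. The ratio of 16S to 12S per base was 0.63 and 0.554 in DASHed mini-bulk and 1.10 and 1.03 in untreated mini-bulk. In single cells it was 0.558 to 0.674 in DASHed and 0.794 to 0.961 in untreated libraries. Gene length stands in for the effective length that kallisto uses, which is not in the deposited table.

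Untreated cells and untreated mini-bulk also differed in this ratio, with 1.30 to 1.57 in the 4 cells and 1.68 and 1.79 in mini-bulk. These ranges do not overlap, and the difference was not tested. The 12S shares of untreated cells, 2.28 to 4.77%, enclosed those of untreated mini-bulk, 3.53 and 4.11%.

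Among mitochondrial counts alone, 12S rRNA took a larger part after depletion and 16S rRNA a smaller one. 12S rRNA made up 42.3 and 44.4% of mitochondrial counts in DASHed mini-bulk and 31.04 and 31.8% in untreated mini-bulk. In cells the values were 40.04 to 45.2% in DASHed and 32.4 to 34.9% in untreated libraries, again without overlap. 16S rRNA made up 43.5 and 40.2% in DASHed mini-bulk against 55.6 and 53.3% in untreated mini-bulk, while in cells 38.2 to 46.4% in DASHed overlapped with 43.9 to 52.6% in untreated libraries. Within same-numbered cells it was lower in all 4 DASHed cells, at 0.859 to 0.882 of the untreated value. The 5 genes together held a similar part of mitochondrial counts throughout, 84.5 and 85.7% in DASHed mini-bulk and 85.1 and 86.7% in untreated mini-bulk. The single-cell values were 80.2 to 88.4% in DASHed and 77.9 to 86.1% in untreated libraries.

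Set against the 13 mitochondrial mRNAs, which code for respiratory chain and ATP synthase proteins, the rRNAs moved apart. 12S counts were 2.97 and 2.87 times the summed mRNA counts in DASHed mini-bulk and 2.34 and 2.13 times in untreated mini-bulk. 16S counts were 3.05 and 2.601 times the mRNA counts in DASHed mini-bulk and 4.19 and 3.58 times in untreated mini-bulk. Both comparisons separated the groups (exact permutation p = 0.333 each, the lowest attainable). In same-numbered cells the 12S to mRNA ratio was 1.32 to 1.64 times as high in the DASHed as in the untreated library, whereas that of 16S was 0.923 to 1.09 times as high.

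The flanking tRNAs had few counts, and most of those came from untreated libraries. In mini-bulk MT-TV had 3 and 1 counts in DASHed libraries and 125 and 133 in untreated ones. In cells, in order of replicate number, it had 3, 0, 2 and 6 counts in DASHed and 181, 94, 273 and 272 in untreated libraries. As a level this is 2.76 and 1.19 CPM in DASHed mini-bulk against 20.7 and 22.9 CPM in untreated mini-bulk, and 0 to 3.81 CPM in DASHed cells against 17.0 to 48.0 CPM in untreated cells. The groups did not overlap in either input. Summed over libraries the MT-TV share was 10.5-fold lower in DASHed mini-bulk (counting interval 4.05 to 38.8) and 17.7-fold lower in DASHed cells (9.84 to 35.6).

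MT-TF, at the start of the unit, had 1 and 0 counts in DASHed mini-bulk and 29 and 23 in untreated mini-bulk. In cells it had 1, 1, 0 and 8 counts in DASHed and 29, 33, 40 and 75 in untreated libraries. Mini-bulk values did not overlap, while in cells the 5.08 CPM of DASHed cell 4 lay above the 5.04 CPM of untreated cell 1. The summed share was 8.46-fold lower in DASHed mini-bulk (1.45 to 341), where it rests on 1 DASHed count, and 4.20-fold lower in DASHed cells (2.23 to 8.92). DASHed cell 4 held 8 of the 10 DASHed counts, and without it the ratio of mean shares was 0.0749 in place of 0.221. Cell 4 had the most MT-TF counts in both groups.

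MT-TL1, at the end of the unit, had 0 counts in both DASHed mini-bulk libraries and 25 and 23 in untreated ones. With a floor of 3 counts over the group, its share was at least 2.604-fold lower. In cells it had 2, 0, 3 and 1 counts in DASHed and 46, 28, 41 and 47 in untreated libraries, without overlap, and a summed share 6.41-fold lower (2.88 to 17.7). A count of 0 says that the RNA was not detected at this depth, not that it was absent.

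The tRNAs were also lower relative to the rRNAs that they flank. Over 12S and 16S counts together, DASHed mini-bulk had 0.385 counts of the 3 tRNAs per 10000 rRNA counts and untreated mini-bulk 2.90, a 7.54-fold lower value (3.20 to 23.4). DASHed cells had 0.83 and untreated cells 6.65, an 8.02-fold lower value (5.48 to 12.2). For MT-TV alone the value was 6.80-fold lower in mini-bulk (2.62 to 25.1) and 13.9-fold lower in cells (7.74 to 28.01). For MT-TF the mini-bulk interval of 0.941 to 221 around 5.48 included no difference, while in cells the value was 3.31-fold lower (1.76 to 7.01), again with most DASHed counts from cell 4. For MT-TL1 it was at least 1.69-fold lower in mini-bulk and 5.04-fold lower in cells (2.27 to 13.9), where DASHed cell 3, at 0.477, lay above untreated cell 2, at 0.444.

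Untreated cells differed from each other in these values. MT-TV had 3.85, 1.49, 8.09 and 8.92 counts per 10000 rRNA counts in untreated cells 1 to 4, and 2.10 and 2.08 in untreated mini-bulk. Cells 3 and 4, with the lowest 16S shares, had the highest values of all 3 tRNAs, and cell 2, with the highest 12S and 16S shares, had the lowest. As rRNA counts are the divisor of these values, such an order is in part built in. In CPM it held for MT-TV only. MT-TF had 5.04 CPM in untreated cell 1 and 5.95 in cell 2, and MT-TL1 had 7.99 in cell 1 and 6.82 in cell 3.

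**Figure D3:**
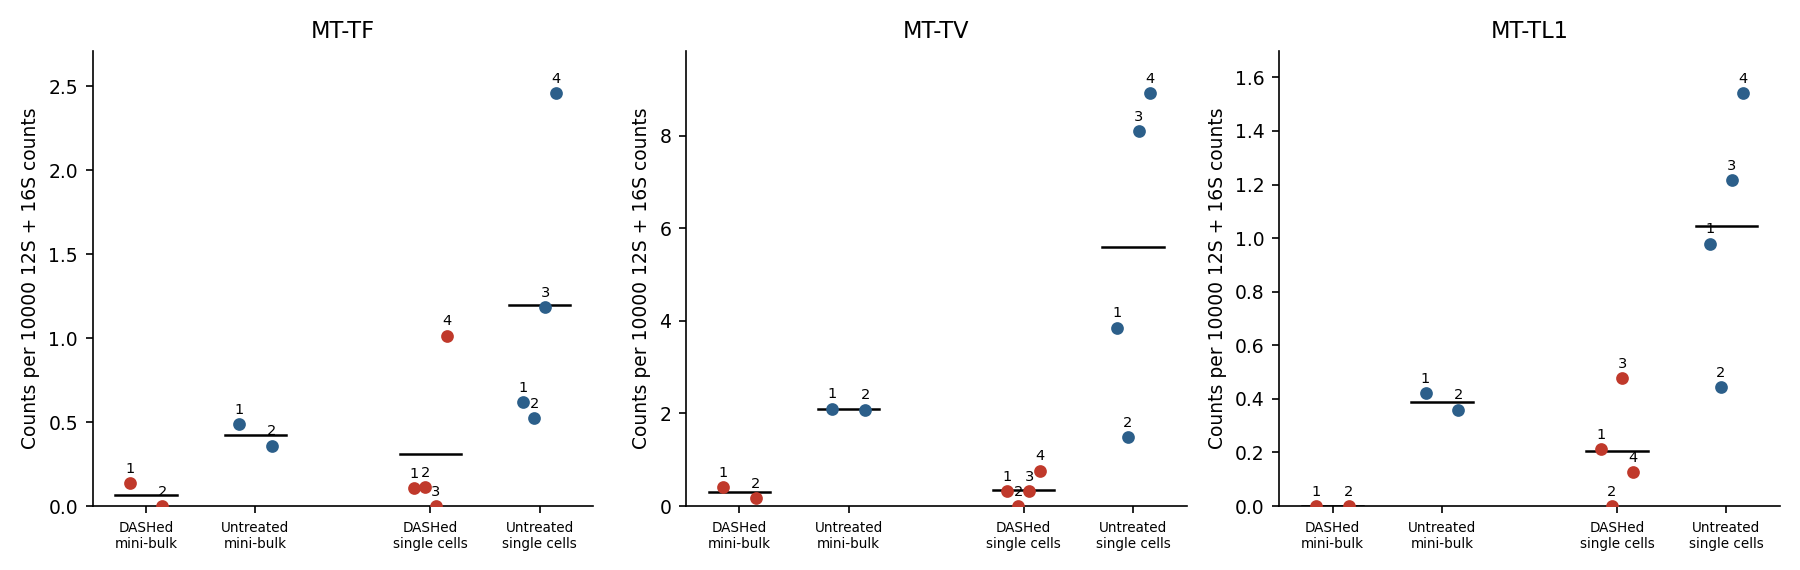
Counts of MT-TF, MT-TV and MT-TL1 per 10000 counts of 12S and 16S rRNA in each library, each panel with its own axis. Points are libraries with their replicate number and lines are group means. MT-TV stays at or below 0.76 in the DASHed libraries and lies between 1.49 and 8.92 in the untreated ones.

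In levels per base the order within untreated mini-bulk was 16S and 12S rRNA, then MT-TV, then MT-TF and MT-TL1. 12S rRNA stood 127-fold above MT-TV, 648-fold above MT-TF and 741-fold above MT-TL1 per base. MT-TF, at 0.0678 and 0.0558 CPM per base, and MT-TL1, at 0.0553 and 0.0528, differed on average by less than the gap between the 2 MT-TF values. In untreated cells the same order of means held among the tRNAs, with 0.514 for MT-TV, 0.109 for MT-TF and 0.0938 for MT-TL1. The tRNA genes are 69 to 75 bases long, and a level per base also depends on fragment lengths, which are not used here.

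To set the unit against the rest of the transcriptome, edgeR's quasi-likelihood test was run on mini-bulk counts scaled by TMM, which takes most genes as unchanged. 12S and 16S rRNA fell, where 19.8% of 10083 tested genes fell and 9.84% rose at an adjusted p of 0.05, together 29.7%. On the log2 scale 12S rRNA fell by 2.17 (SE 0.15, adjusted p = 5.62e-05 in edgeR), whereas 16S rRNA fell by 3.02 (SE 0.17, 2.89e-05). MT-TF, MT-TV and MT-TL1 passed the filter on low counts only through the untreated libraries, which all but fixes a fall, so their calls give no support and only their counts are described. On the TMM scale the summed counts of MT-TV were 42.3-fold lower in DASHed libraries (counting interval 16.3 to 156). Those of MT-TF were 34.1-fold lower (5.86 to 1372), and those of MT-TL1 at least 10.5-fold lower.

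The cytosolic rRNAs give a scale for these values. RNA18S4, the 18S rRNA row of highest count, fell by 3.05 (SE 0.22) in the same fit. RNA28S4, the 28S rRNA row of highest count, fell by 3.49 (SE 0.25). Each is a single row of 534 nuclear rRNA rows of several kinds, and kallisto can split reads among rows of like sequence. In this mini-bulk fit the log2 fold change of 16S rRNA lay within 1 SE of that of RNA18S4, and that of 12S rRNA stood nearer to 0. The likeness of 16S rRNA and RNA18S4 did not extend to cells. There the ratio of mean shares, DASHed over untreated, was 0.69 for 16S rRNA, 0.436 for RNA18S4 and 0.302 for RNA28S4. In mini-bulk these ratios were 0.501, 0.494 and 0.365. No test of these differences between genes was run.

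The size of these falls depends on how libraries are scaled. With total counts alone the median over the tested genes moved to 2.03, and on that scale 12S rRNA had −0.15 (SE 0.20, edgeR adjusted p = 0.527) and no longer passed, while 16S rRNA fell by 0.996 (SE 0.20, 0.000476). With an offset for GC content, the fall of 12S rRNA was smaller (log2 −1.16, SE 0.17, edgeR adjusted p = 0.00507), as was that of 16S rRNA (−1.62, SE 0.18, 0.000971). These values lay closer together than −2.17 and −3.02 without the offset, so the gap between 12S and 16S rRNA depends on it too. The unit has 38.7 to 45.5% GC, and all tested genes have a median of 51.4%.

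**Figure D4:**
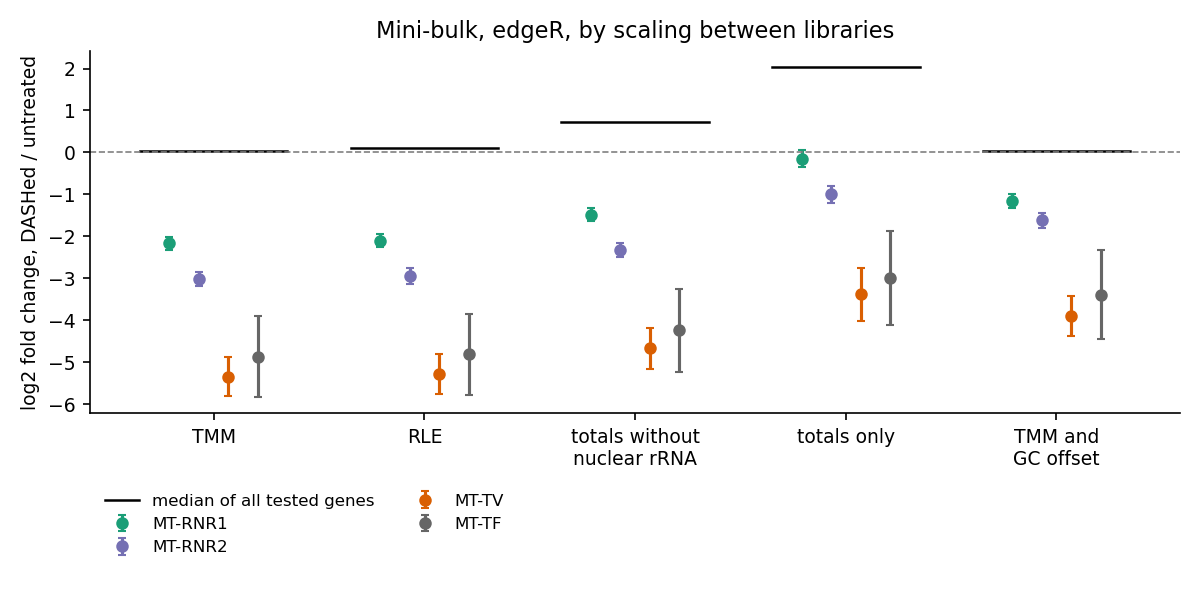
Mini-bulk log2 fold change of DASHed over untreated libraries for 4 genes of the unit under 5 ways of scaling, with bars of 1 standard error. Black lines mark the median of all tested genes, which lies at 2.03 with totals only. 12S rRNA is nearest to 0 and MT-TV farthest below it under each scaling.

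Within the mitochondrial genome, 12S rRNA lay near the top and MT-TV at or near the bottom of the ratios of share. Among the 15 rRNAs and mRNAs, 12S rRNA had the second highest ratio of DASHed to untreated share, 0.897 in mini-bulk and 0.962 in cells, after MT-ND1 with 1.197 and 1.21. MT-ND1 encodes a complex I subunit and is the mRNA that follows MT-TL1 in the genome. 16S rRNA ranked 9 of 15 in mini-bulk, at 0.503, and 8 of 15 in cells, at 0.664. MT-ATP8, which encodes a small ATP synthase subunit and overlaps MT-ATP6, had the lowest ratio of the 15, 0.0933 in mini-bulk and 0.109 in cells. The summed MT-TV ratios, 0.0953 and 0.0565, were of that size or lower.

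On the TMM scale each of the 13 mRNAs was called lower, where 19.8% of all 10083 tested genes were. Their median was −2.81 on the log2 scale, beside 0.03 over the tested genes. On this scale 12S rRNA fell by less than the median mRNA and 16S rRNA by more. With the GC offset the mRNA median was −1.61, and 16S rRNA was level with it at −1.62 (SE 0.18). 12S rRNA, at −1.16 (SE 0.17), still fell by less. MT-ATP8, which also passed the filter only through the untreated libraries, fell by 5.45, MT-ND4L by 3.67 and MT-ND6 by 3.52. With total counts alone 7 of the 13 passed, all lower in DASHed libraries, where 143 of all 10083 tested genes fell and 6691 rose.

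**Figure D5:**
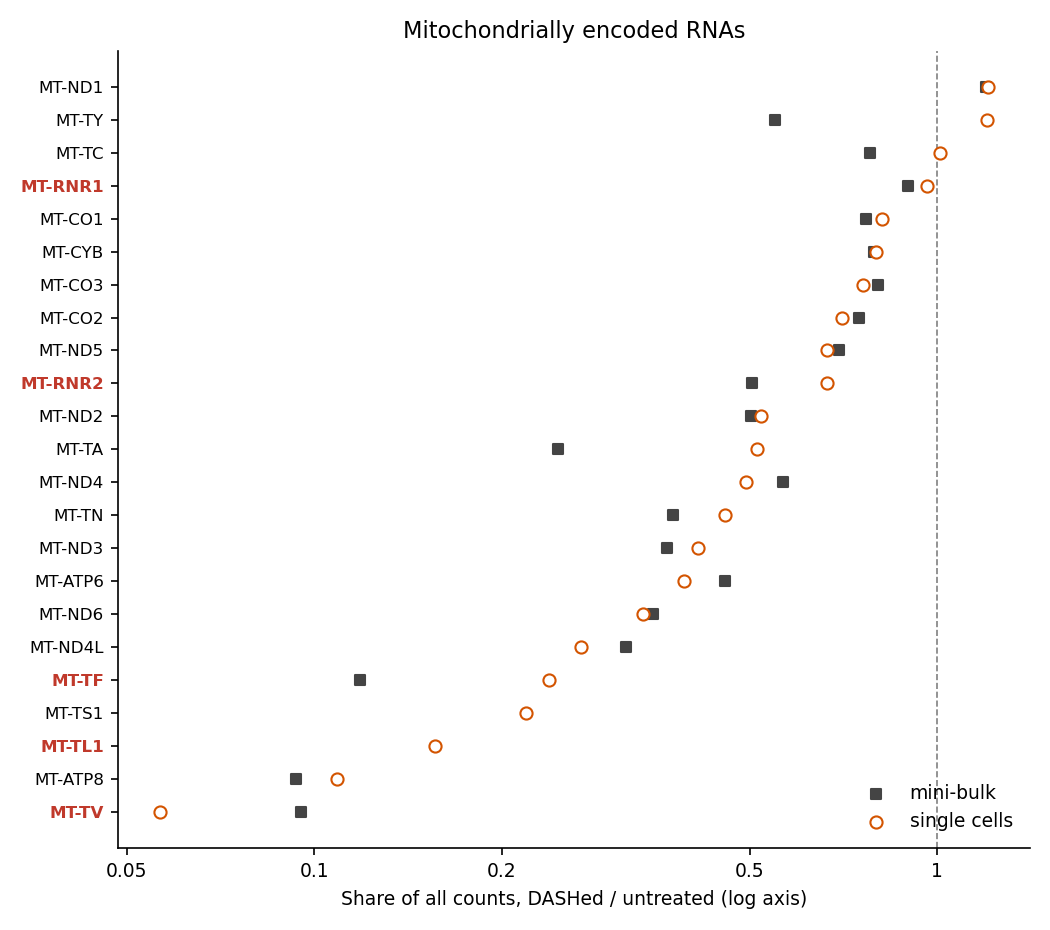
Ratio of the share of all counts in DASHed to that in untreated libraries, on a log axis, for mitochondrially encoded RNAs with at least 20 untreated counts in each input. Filled squares are mini-bulk and open circles single cells, summed over libraries, and bold red names are the 5 genes of the rRNA unit. RNAs with 0 DASHed mini-bulk counts have no square. 12S rRNA stands at 0.897 and 0.962, and MT-TV at 0.0953 and 0.0565.

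Of the other 19 mitochondrial tRNAs, 4 passed the filter on low counts, with a median of −3.10 on the log2 scale. All 4 were called lower, where 19.8% of all tested genes were, but MT-TA, MT-TN and MT-TY passed the filter only through the untreated libraries, so this count gives no support. The calls were lost with the GC offset (edgeR adjusted p 0.151 to 0.312) and with total counts alone (0.0765 to 0.638), and without untreated replicate 1 only 1 of them was tested. The log2 fold change was −3.94 for MT-TA (SE 0.84), −3.33 for MT-TN (SE 0.75) and −2.87 for MT-TY (SE 0.54). These 3 had 2, 3 and 11 counts in DASHed mini-bulk against 50, 49 and 123 in untreated mini-bulk. MT-TC, named after its value was seen, had −2.36 (SE 0.56). In total the 22 tRNAs had 32 counts in DASHed and 818 in untreated mini-bulk, and 414 and 3560 in cells.

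Relative to 16S rRNA, the MTRNR2L copies together had fewer counts in DASHed than in untreated libraries. Of the 13 genes, 3 were tested and called lower, where 19.8% of all tested genes were. MTRNR2L12 and MTRNR2L8 passed the filter only through the untreated libraries, so the count gives no support. MTRNR2L1 fell by 4.85 (SE 0.24), where 16S rRNA fell by 3.02 (SE 0.17), and this difference was not tested. MTRNR2L12 had −4.42 (SE 0.53) and MTRNR2L8 −3.65 (SE 0.79). With the GC offset, and with total counts alone, 2 of these 3 calls held. All 13 together had 4.87 and 4.81 counts per 10000 counts of 16S rRNA in DASHed mini-bulk and 14.0 and 17.6 in untreated mini-bulk. In cells they had 7.71 to 8.73 in DASHed and 19.6 to 26.4 in untreated libraries, also without overlap. Adding them to 16S rRNA left its ratio to 12S rRNA at 0.557 of the untreated value in mini-bulk and at 0.691 in cells. These counts are uncertain, because MTRNR2L1 is 88.6% and MTRNR2L12 95.1% identical to 16S rRNA over their aligned lengths.

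Nuclear genes that act on mitochondrial rRNA or other mitochondrial RNA rose about as often as all tested genes and fell less often. Neither difference was tested. Of 40 such factors, 31 were tested, 3 rose and 3 fell, where 9.84% of all tested genes rose and 19.8% fell. Their median was 0.28 on the log2 scale, beside 0.03 for all tested genes. FASTKD2, a protein that binds 16S rRNA, fell by 2.92 (SE 0.55, edgeR adjusted p = 0.00574). LRPPRC, which stabilises mitochondrial mRNAs, fell by 2.72 (SE 0.42, 0.00231), and GRSF1, a protein of mitochondrial RNA granules, fell by 2.06 (SE 0.43, 0.00887). With the GC offset these 3 no longer passed (edgeR adjusted p of 0.342, 0.159 and 0.576), and with total counts alone they had 0.241, 0.235 and 0.891. The 3 that rose, named after their values were seen, are MPV17L2, a ribosome assembly protein (1.31, SE 0.23), PTCD1 (1.25, SE 0.37) and ELAC2, the tRNA 3′ end nuclease (0.79, SE 0.20). They too were lost with the GC offset (edgeR adjusted p of 0.225, 0.55 and 0.501). ELAC2 was also lost without untreated replicate 1 (0.287) or 2 (0.214), and PTCD1 without untreated replicate 2 (0.38) or DASHed replicate 2 (0.0665). With total counts alone 24 of the 31 rose, as did 6691 of all 10083 tested genes, whose median was then 2.03. POLRMT, the mitochondrial RNA polymerase, had a log2 fold change of 0.65 (SE 0.36, edgeR adjusted p = 0.196).

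By count of genes whose shares did not overlap, 4 of the 5 genes of the unit were lower in both DASHed mini-bulk libraries, where 8.26% of 11519 genes with at least 20 counts were and 69.1% were higher in both. In cells MT-TV and MT-TL1 were lower in all 4 DASHed libraries, where 0.921% of 13469 genes were and 7.45% were higher in all 4. MT-TF, MT-TV and MT-TL1 reached 20 counts only through the untreated libraries, which all but fixes a lower share. For them the comparison with all genes therefore gives no support in either input. Of the 4 mini-bulk genes, that leaves MT-RNR2.

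The genes whose level across the 12 libraries was most like that of each rRNA were sought among 1796 genes with at least 20 counts in every library, by Pearson correlation of log2(CPM + 1). For 16S rRNA the closest was MT-ND4, a complex I mRNA (r = 0.884), followed by MCMBP (0.807), LDHA, which encodes lactate dehydrogenase A (0.794), AL161431.1 (0.792) and QSER1 (0.765). For 12S rRNA they were PTBP3, an RNA-binding protein gene (0.881), DHX15, a splicing helicase gene (0.832), HSPH1, a chaperone gene (0.812), ELK4 (0.807) and FADS1, a fatty acid desaturase gene (0.78). 12S and 16S rRNA correlated with each other at 0.771. The libraries share depletion status, depth and input, so these values are descriptions.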

How the data were processed

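The values are estimated counts, deposited by the authors in 1 gene table without depth scaling. Per the submitters' processing notes they come from kallisto 0.46.2, which splits ambiguous reads among transcripts. Their build, annotation and strand setting were not given in the sources used here. Of 57134 gene names, 57079 match GENCODE v29 as written, which supplied positions, sequences and GC content.

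Genes and lists were chosen with earlier results of these data known. Estimated counts were rounded and tested for mini-bulk libraries with edgeR 4.0.16 (R 4.3.3), TMM, default filter, and Benjamini-Hochberg adjustment over all tested genes. Alternatives were DESeq2 1.42.0, other scalings, no filter, a GC offset (a smooth of log counts over transcript GC in each library), replicate block and left-out libraries. Shares and ratios were compared with exact two-sided permutation tests. Intervals of summed ratios are exact 95% binomial-based counting intervals. Named genes are the 5 members, up to 3 per list with the largest called fold (or the 2 most expressed), 18S and 28S rRNA, and the 5 nearest genes by correlation. For the rRNA factors the sublists were joined, and POLRMT was added after its value was seen.

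Replicate numbers are shared between groups. Same-numbered cells deviated together from their group means (correlations of 0.933 to 0.944 over 6353 genes), so cells were paired by number, on the data alone. Nothing in the labels says what a number stands for.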

Additional observations from a re-analysis of the deposited data

Results flagged for a closer look

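MT-TF in DASHed cell 4 stood apart from the other DASHed cells, with 8 of the group's 10 counts. Its distance to the nearest cell, divided by the range of the 4 cells, was 0.881 for the share of mitochondrial counts and 0.89 for counts per 10000 rRNA counts, both above the 95% critical value of Dixon's test. The cells are not replicates of a treatment, so this describes these cells only. Chance flags about 1 in 20 such groups, and 28 were checked. Untreated cell 4 also had the most MT-TF counts of its group, 75. Without DASHed cell 4 the MT-TF share ratio of cells was 0.0749 in place of 0.221.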

How the results depend on the processing

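Counts of genes that rose and fell, 992 and 1998, became 6691 and 143 with total counts only, 3196 and 1121 with totals without nuclear rRNA, and 160 and 223 with the GC offset. Without a left-out library they ran from 205 to 1382 and from 1192 to 2116. Those without untreated mini-bulk replicate 1 were 225 and 1192, and without replicate 2 they were 205 and 1219. DESeq2 called 1070 falls. The mini-bulk numbers share no stated source and gave 2 mirrored pairs with a correlation of 0.506. With the replicate block 2359 rose and 3047 fell, and with block and GC offset 883 fell. The log2 fold change of 12S rRNA was −0.15 with total counts only, and with the GC offset those of MT-TF and MT-TL1 were −3.39 and −6.85, the last fitted against 0 counts and so no bound. The calls of MT-TF and MT-TL1 could not be fitted without either untreated library, since the filter then removed them, and DESeq2 gave MT-TL1 no adjusted p. With a library left out, an arm of 1 library is assumed to vary like the other group. 12S rRNA, 16S rRNA and MT-TV were tested in all 4 such fits, and MT-TF and MT-TL1 only in the 2 that kept both untreated libraries. For the tRNAs the filter again all but fixed a fall, so only effect sizes are given. The log2 fold changes ran from −2.44 to −2.03 for 12S rRNA, −3.33 to −2.81 for 16S rRNA, −6.02 to −4.79 for MT-TV, −7.49 to −4.00 for MT-TF and −7.43 to −7.37 for MT-TL1.

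Of mitochondrial rows alone, the mini-bulk 12S ratio turned to 1.38, and in cells it was 1.26, with 0.87 for 16S rRNA. Without nuclear rRNA in the total, cell ratios were 0.0895 for MT-TF, 0.417 for 12S rRNA, 0.0208 for MT-TV, 0.286 for 16S rRNA and 0.0582 for MT-TL1. With a library left out the cell ratios ran from 0.0749 to 0.294 for MT-TF, 0.852 to 1.21 for 12S rRNA, 0.0335 to 0.0693 for MT-TV, 0.608 to 0.819 for 16S rRNA and 0.102 to 0.194 for MT-TL1. In mini-bulk they ran from 0.837 to 0.973 for 12S rRNA, 0.481 to 0.524 for 16S rRNA, 0.0547 to 0.126 for MT-TV and, in the 3 cases with a DASHed count left, 0.0955 to 0.21 for MT-TF, whose only DASHed count lies in DASHed mini-bulk replicate 1. The 16S to 12S ratio of DASHed over untreated ran from 0.521 to 0.593 in mini-bulk and from 0.666 to 0.716 in cells. Means over same-numbered pairs (replicate block) changed no direction for 16S rRNA or for the 16S to 12S ratio, at 0.556 in mini-bulk and 0.692 in cells, and no such mean exists for a tRNA with a count of 0 in a pair. The cause of these changes was not tested. Depth limits the tRNAs: 3 counts equal 1.91 to 3.58 CPM in DASHed and 0.498 to 0.541 CPM in untreated libraries.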

Other observations

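Among the mitochondrial tRNAs outside the rRNA unit, those for alanine, asparagine, cysteine and tyrosine (MT-TA, MT-TN, MT-TC and MT-TY) held most of the counts left in DASHed libraries. They neighbour each other in the genome. They were singled out after their values were seen. They held 25 of 32 tRNA counts in DASHed mini-bulk and 293 of 818 in untreated mini-bulk, and 367 of 414 in DASHed cells and 1894 of 3560 in untreated cells. The 3 tRNAs of the rRNA unit held 5 of 32 and 358 of 818 in mini-bulk, and 27 of 414 and 1159 of 3560 in cells. In cells the summed share of MT-TY was 1.203 times and that of MT-TC 1.01 times the untreated share, where MT-TV had 0.0565. In mini-bulk the ratios were 0.549 for MT-TY and 0.779 for MT-TC. The other tRNAs outside the unit that had DASHed cell counts ran from 0.0569 (MT-TK) to 0.602 (MT-TR) in cells. MT-TK and MT-TR each had 1 DASHed cell count. Low tRNA counts were thus not particular to the unit. Of all 22 tRNAs, 8 had a count in DASHed mini-bulk and 21 in untreated mini-bulk. Whether MT-TA, MT-TN, MT-TC and MT-TY differ from the tRNAs of the unit beyond chance was not tested.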
